A study of Mus musculus with 4 samples.

Results

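Committed oligodendrocytes were taken as the nuclei that the authors' annotation of the superior colliculus gave the subtype Committed Oligodendrocyte, which was 101 of 9724 nuclei. Nuclei of C57BL/6J mice had been isolated at embryonic day 19 (E19) and at postnatal days 4 (P4), 8 (P8) and 21 (P21), with 1 library per stage made from tissue pooled over several animals; the labels name no treatment and no altered gene. The superior colliculus is the layered roof of the midbrain, where input from the retina is turned into orienting movements. The library of E19 held 1 committed nucleus, that of P4 12, that of P8 33 and that of P21 55. RNA of single nuclei was captured in droplets (10x Genomics chemistry for the 3′ ends of transcripts) and counted as unique molecular identifiers (UMIs), so that each count stands for 1 captured RNA molecule.

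Oligodendrocytes, the myelin-forming cells of the brain, arise from dividing precursors (also called oligodendrocyte precursor cells) that carry the growth factor receptor Pdgfra and the proteoglycan Cspg4. On leaving the cell cycle, a precursor passes through a short-lived committed stage in which it loses those proteins, extends many processes and turns on a set of genes seen in few other cells, before it either dies or matures into a cell that wraps axons with myelin. The committed nuclei are therefore described here against the 261 nuclei labelled precursor (46 of E19, 42 of P4, 109 of P8, 64 of P21) and the 188 labelled myelinating (1 at P8 and 187 at P21). The labels follow the authors' clustering of these nuclei by their expression, so every difference between labels is a description of the label and none was tested.

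Of the lineage, committed nuclei made up 22.2% at P4 (12 of 54 nuclei, exact Clopper-Pearson 95% interval 12.04 to 35.6). The P8 share was 23.1% (33 of 143, 16.4 to 30.9) and the P21 share 17.97% (55 of 306, 13.8 to 22.7). At E19 the value was 2.13% (1 of 47, 0.0539 to 11.3). The intervals of P4, P8 and P21 overlap, whereas the whole lineage was larger at the later stages: of all nuclei of the library, committed nuclei were 0.503% (0.26 to 0.877) in the P4 library, 1.32% (0.909 to 1.85) in that of P8 and 2.45% (1.85 to 3.17) in that of P21. With 1 library per stage these intervals, like all those below, cover counting error alone, and a difference between stages is a difference between 2 libraries without a replicate check.

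Levels are given as CPM, the UMIs of a gene per 1000000 UMIs that the nuclei of 1 label and stage held together. The sums were 58935 UMIs for committed nuclei of P4, 210155 for P8 and 485759 for P21, against 512433 and 299483 for precursors of P8 and P21 and 1567311 for myelinating nuclei of P21. Committed nuclei were deeper than precursors, with a median of 6152 against 4515 UMIs per nucleus at P8 and 8510 against 4467 at P21; myelinating nuclei had 7860. A level of 100 CPM stood for 5.89 UMIs in the P4 sum, 21.02 in the P8 sum and 48.6 in the P21 sum, so P4 values are given as levels only. The 4 libraries shared 9 cell barcodes, none of them of a committed nucleus. All 101 committed nuclei, and no others, lay in 1 cluster of the deposited clustering.

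The 4 genes that mark the label were higher in committed nuclei of P4, P8 and P21 than in precursors and myelinating nuclei, by differing margins. They are 9630013A20Rik, a long noncoding RNA gene, Bcas1, whose protein marks oligodendrocytes that are starting to form myelin, Enpp6, a choline phosphodiesterase of newly formed oligodendrocytes, and Tns3, a tensin of focal adhesions. In GRCm38 (GENCODE M21) 9630013A20Rik spans chr14:84458639-84476424 on the minus strand, opposite to Pcdh17, Bcas1 chr2:170346991-170427845 (minus), Enpp6 chr8:46986887-47096762 (plus) and Tns3 chr11:8431652-8664535 (minus).

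The promoter windows of the markers are shown because these genes were all higher in committed nuclei than in precursors and myelinating nuclei. RefSeq windows (GRCm38.p6, 250 bases before to 50 after the start site, written 5′ to 3′ on the strand of the gene) were found for 3 of the 4 genes, 9630013A20Rik at chr14:84476375-84476674, Enpp6 at chr8:46986637-46986936 and Tns3 at chr11:8664486-8664785. Capitals mark ACAATG or its reverse complement CATTGT, letters found in binding sites of SOX factors, of which Sox10 is the best known in this lineage.
9630013A20Rik: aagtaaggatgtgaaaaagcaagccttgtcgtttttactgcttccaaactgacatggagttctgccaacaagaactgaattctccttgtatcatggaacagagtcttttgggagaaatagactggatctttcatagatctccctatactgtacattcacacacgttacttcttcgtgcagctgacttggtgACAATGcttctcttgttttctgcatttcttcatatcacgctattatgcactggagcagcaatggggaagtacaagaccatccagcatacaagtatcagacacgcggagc
Enpp6: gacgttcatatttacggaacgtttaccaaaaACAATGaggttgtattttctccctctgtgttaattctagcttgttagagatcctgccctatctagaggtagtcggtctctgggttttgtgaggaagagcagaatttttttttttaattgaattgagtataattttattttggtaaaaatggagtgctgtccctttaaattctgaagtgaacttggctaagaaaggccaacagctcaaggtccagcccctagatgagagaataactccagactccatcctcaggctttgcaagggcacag
Tns3: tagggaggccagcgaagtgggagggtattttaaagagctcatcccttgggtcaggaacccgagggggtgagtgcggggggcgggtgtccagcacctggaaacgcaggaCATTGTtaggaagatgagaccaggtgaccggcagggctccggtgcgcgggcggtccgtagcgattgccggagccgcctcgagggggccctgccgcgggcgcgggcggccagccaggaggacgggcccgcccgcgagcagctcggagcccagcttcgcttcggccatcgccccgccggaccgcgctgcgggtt
Each of the 3 windows held ACAATG once: 59 bases before the start site in 9630013A20Rik, 219 before it in Enpp6, and 142 before it, on the opposite strand, in Tns3. ACAAAG, the other SOX letters searched on both strands, was in none of them. Over all 32851 promoter windows of the table, 12.6% held ACAATG, 18.7% held ACAAAG and 28.6% held either, counted on both strands. A match of 6 letters is a description and not a binding site.

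9630013A20Rik stood at 1459 CPM in committed nuclei of P4, 866 (745 to 1001) at P8 and 3681 (3512 to 3856) at P21. In precursors it was 5.25, 5.94, 11.7 and 50.1 CPM from E19 to P21, and in myelinating nuclei 39.6. Neurons had 1.36 CPM at P8 and 6.45 at P21 and astrocytes 2.42 and 16, so that no other group came near the committed nuclei of any stage. Bcas1 was higher still, at 4140.1, 5824 and 3545 CPM in committed nuclei from P4 to P21. Its level in precursors was 173, 232, 478 and 1058 CPM at the 4 stages, and in myelinating nuclei 1255; of the 4 markers it was the one with the least separation at P21 (log2 ratio 1.74 over precursors, where 1 is 2-fold and 5 CPM were added to both values). Enpp6 had 916, 1052 and 782 CPM in committed nuclei. No UMI of Enpp6 was seen in precursors of E19 and P4, and precursors had 9.76 CPM at P8 and 66.8 at P21 beside 107 in myelinating nuclei. Tns3 was at 1883, 2322 and 2750.3 CPM in committed nuclei, at 220.3 to 534 in precursors and at 152 in myelinating nuclei.

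**Figure D1:**
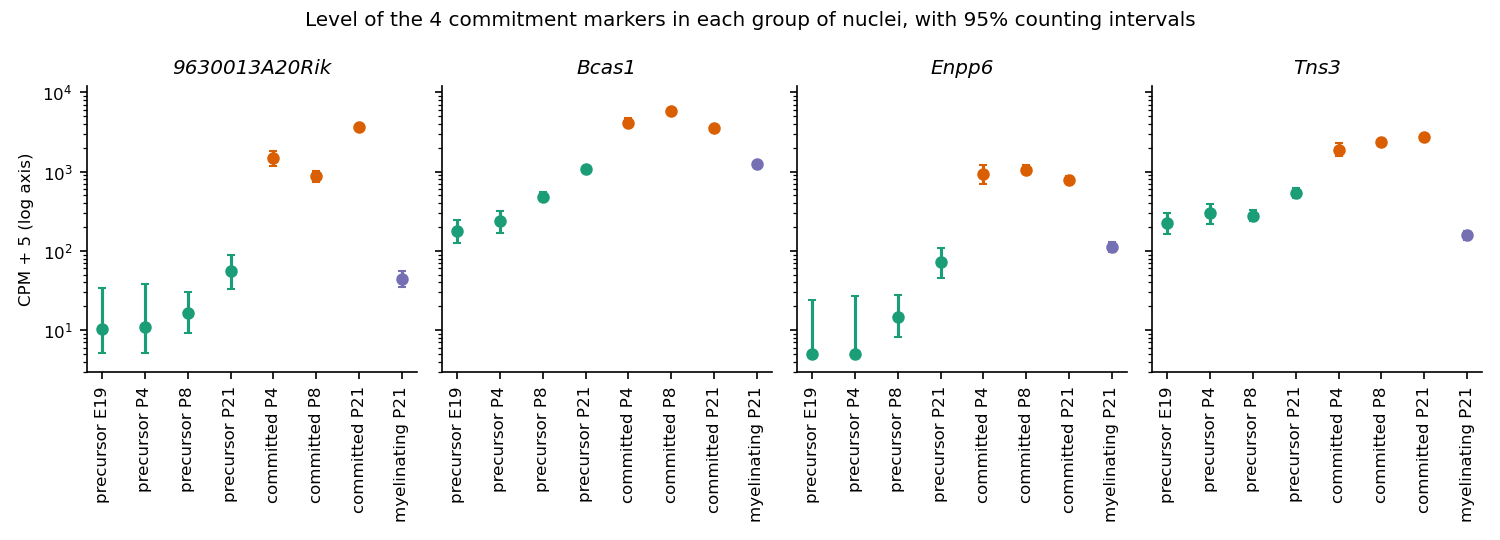
Level of 9630013A20Rik, Bcas1, Enpp6 and Tns3 (CPM plus 5, log axis) in precursor (green), committed (orange) and myelinating (purple) nuclei of each stage; points are summed UMIs and bars exact Poisson 95% intervals. All 4 markers lie above their precursor and myelinating levels in the 3 committed groups.

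In single nuclei thinned to 2300 UMIs each, Enpp6 was seen in 26 of 33 committed nuclei of P8 and 37 of 55 of P21 (27 and 45 with all UMIs), against 2 of 109 and 6 of 64 precursors. Neurons, which should lack it, gave 4 of 1955 at P8 and 10 of 1422 at P21 after the same thinning (37 and 69 with all UMIs), from median depths of 11149 and 16388 UMIs. The summed share of the 4 markers ranged from 0.217% to 1.67% of the UMIs of a committed nucleus at P8 (median 0.913%) and from 0.0872% to 1.85% at P21 (median 1.15%). At P8, 2 of 109 precursors reached the lowest committed nucleus, and at P21 43 of 64 did, but none of either stage reached the lower quartile of the committed nuclei. No myelinating nucleus of P21 reached that quartile.

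The 12 neuron markers summed to 2627 CPM in committed nuclei of P8 and 1124 of P21, below precursors of the same libraries (4980.2 and 4347) and far below neurons (25429 and 25893). The 12 astrocyte markers summed to 352 and 189 CPM, against 876 and 1165 in precursors. Microglia, endothelial and vascular leptomeningeal markers each summed to less than 50 CPM in committed nuclei of P4, P8 and P21. The 6 epithelial markers summed to 423 CPM in committed nuclei of P8 and 1143 of P21, against 285 and 411 in precursors and 1991 in myelinating nuclei. Nearly all of this was Enpp2, at 414 and 1134 CPM in committed nuclei and 1984 in myelinating nuclei, a gene also known from oligodendrocytes that codes for the secreted enzyme autotaxin. It was the 1 gene of the 6 that was 2-fold or more higher at P21, both than in precursors and than at P8. The epithelial gene Ttr stood at 933 CPM in committed nuclei of P4 and 273 in precursors of P4 and at 4.76 and 2.06 CPM in committed nuclei of P8 and P21; its part in the P4 values was not tested. Of the 5 dividing-cell markers, 4 had no UMI in committed nuclei of P8 and 4 had none in those of P21. The 5 together summed to 4.76 and 4.12 CPM, against 29.3 and 23.4 in precursors, so that they were low in both labels. Among 30 genes of the cell cycle and its exit, only Rb1, a brake on division, reached 100 CPM in committed nuclei (146 CPM at P21). Precursors of P21 had a like level of Rb1 (134 CPM), so that it did not set committed nuclei apart.

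Committed nuclei differed from precursors most plainly in the genes of the committed stage itself. Of 30 further genes known from committed and newly formed oligodendrocytes, 22 were 2-fold or more higher than in precursors at P8 and 0 lower, where 14.1% of all 2361 genes at 100 CPM or more were higher and 17.5% lower. At P21 23 were higher and 0 lower, with 21.6% and 26.8% of 2579 genes for all genes. The median log2 ratio over the list's members with a UMI was 2.49 at P8 (28 members) and 2.50 at P21 (30 members), against -0.15 and -0.19 over all genes with a UMI. This list was drawn up from knowledge of the stage, with earlier results of these data known, so its counts describe the label. CPM are relative to the total of a group: over genes with at least 10 UMIs in both groups, the median log2 ratio was 0.20 for committed over precursor nuclei at P8, -0.20 at P21, 0.07 for committed over myelinating nuclei and -0.30 for committed nuclei of P21 over P8. Scaled to that median instead, 264 genes were 2-fold or more higher and 530 lower at P8, where scaling to totals gave 334 and 413. At P21 the balance turned, with 652 higher and 589 lower where scaling to totals gave 558 and 691.

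The kinase Fyn, which relays axonal contact to the cytoskeleton and to local Mbp translation, was at 3105, 4520.5 and 3664 CPM in committed nuclei of P4, P8 and P21, at 511 to 992 CPM in precursors of the same stages and at 164 CPM in myelinating nuclei. Tcf7l2, the transcription factor through which Wnt signals act, showed the same shape, with 3189.96, 2584 and 2687 CPM in committed nuclei, 429 and 414 in precursors of P8 and P21 and 79.1 in myelinating nuclei. Itpr2, a calcium release channel of the endoplasmic reticulum, was at 1917, 2441 and 2149 CPM and at 13.4 in myelinating nuclei. Neither Fyn, Tcf7l2 nor Itpr2 differed 2-fold between the committed nuclei of P8 and P21.

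Other genes of the committed stage differed in how much precursors held of them. Bmp4, a secreted ligand of the bone morphogenetic protein family, had 385 (306 to 479) CPM in committed nuclei of P8 and 218 (179 to 264) of P21, against 1.95 and 6.68 in precursors and 0.64 in myelinating nuclei. Epb41l2, a membrane skeleton protein, had 2598 and 1517 CPM, against 103 and 170.3 in precursors. Sirt2, a tubulin deacetylase, had 1313 and 1499 CPM, against 78.1 and 254. Tmem108, a transmembrane protein, had 3098 and 2732 CPM, against 230.3 and 264.

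Gpr17 and Neu4, in common use to recognise committed precursors, stood no higher in committed nuclei than in precursors at P21. Gpr17, a G protein-coupled receptor, was at 414 (332 to 511) CPM in committed nuclei and 131 (101 to 166) in precursors at P8, but at 278 (233 to 329) and 297 (239 to 366) at P21. Neu4, a sialidase, was at 252 (189 to 329.9) and 23.4 (12.1 to 40.9) CPM at P8 and at 159 (125 to 198) and 304 (245 to 373) at P21. Precursors of E19 and P4 had no UMI of Neu4. After thinning, 5 of 109 precursors of P8 and 35 of 64 of P21 held a Neu4 UMI (8 and 40 with all UMIs), against 0 of 1422 neurons of P21 (9 with all UMIs). Within committed nuclei of P21 both genes were uneven, as described with the single nuclei.

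Precursor genes were lower in committed nuclei, though many were still measured. Of 27 precursor genes, 23 reached 100 CPM in either group at P8 and 24 at P21. At P8 13 were 2-fold or more lower in committed nuclei and 2 higher, beside 17.5% and 14.1% over all genes. At P21 20 were lower and 1 higher, beside 26.8% and 21.6%. Pdgfra had 2 UMIs in all committed nuclei of P8 and 2 in those of P21, which is 9.52 (1.15 to 34.4) and 4.12 (0.5 to 14.9) CPM, against 761 in precursors of P8 and 761 of P21. Cspg4 was at 23.8 and 10.3 CPM, against 301 and 501. Lhfpl3, a tetraspan membrane protein gene, and Pcdh15, a protocadherin, kept an intermediate level at P8 (1566 against 7909 CPM and 1313 against 5128 CPM) and a lower one at P21 (459 and 339.7 CPM).

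Precursor genes differed among themselves. Tnr, which codes for the extracellular matrix protein tenascin-R, was higher in committed nuclei than in precursors at P8 (10202 against 1551 CPM) and stood at 7347 against 4294 CPM at P21, while myelinating nuclei had 32.5. Sema5a, a semaphorin, was higher in committed nuclei of both stages (1813 against 649.8 and 2022 against 578 CPM). Sox6, a transcription factor that holds precursors undifferentiated, was at 3983 CPM in committed nuclei and 3427 in precursors of P8 and at 1276 and 2150.4 at P21. Its partner Sox5 was at 1014 and 1366 CPM at P8 and at 224 and 1566 at P21.

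Ion channels and glutamate receptors, through which precursors listen to neurons, were lower in committed nuclei. Of 57 such genes, 42 reached 100 CPM in either group at P8 and 43 at P21. At P8 23 were 2-fold or more lower than in precursors and 2 higher, beside 17.5% and 14.1% over all genes. At P21 30 were lower and 4 higher, beside 26.8% and 21.6%. Kcnd2, an A-type potassium channel, was at 5597 CPM in precursors and 918 in committed nuclei at P8, and at 4100.4 and 218 at P21. Its accessory subunit Kcnip3 was at 857 and 1145 CPM in precursors and at 28.6 and 2.06 in committed nuclei (a single UMI at P21). The metabotropic glutamate receptor gene Grm5 was at 843 and 1189 CPM in precursors and 205 and 121 in committed nuclei. Not every glutamate receptor was lower in the summed nuclei: Gria2 was at 776 and 956 CPM at P8 and 708 and 888 at P21. Among the committed nuclei of P21 Gria2 was uneven, at 1731 CPM in the 19 with the least myelin RNA and 89.7 in the 18 with the most. Grik2, at 2026 and 915 CPM at P21, was higher in committed nuclei, unevenly among them, as described with the single nuclei. The neuron markers above were also lower in committed nuclei than in precursors, and their part in these counts was not tested.

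Of 42 transcription factors of the lineage, 24 reached 100 CPM in either group at P8 and 24 at P21. At P8 6 were 2-fold or more higher in committed nuclei than in precursors and 8 lower, beside 14.1% and 17.5% over all genes. At P21 9 were higher and 7 lower, beside 21.6% and 26.8%. Against myelinating nuclei of P21, 4 of the 21 at that level were higher and 4 lower, beside 15.3% either way over all genes. St18 had 2141 and 3979 CPM in committed nuclei of P8 and P21 against 23.4 and 104 in precursors, and 5105 in myelinating nuclei. Myrf, the factor required to start myelin gene expression, had 271, 243 (181 to 319) and 255 (212 to 304) CPM in committed nuclei of P4, P8 and P21, 11.7 and 16.7 in precursors and 199.7 (178 to 223) in myelinating nuclei. Zeb2, a repressor that promotes myelination, had 2708 and 2746 CPM against 509 and 1015, and 2664 in myelinating nuclei. Nkx2-2 was at 443 (357 to 542) CPM in committed nuclei of P8 and 99.5 in precursors, and at 90.6 and 107 at P21. Zfp536 was near the precursor level at P8 (423 against 312 CPM) and above it at P21 (1539.9 against 291 CPM), unevenly among the nuclei, as described below. Etv5, a target of growth factor signalling, was at 4.76 and 2.06 CPM against 176 and 237, and the Notch target Hes5 at 28.6 and 2.06 against 133 and 53.4. Sox10, which is carried through the whole lineage, had log2 ratios of 0.79 and 0.91 over precursors at P8 and P21, both short of 2-fold.

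Genes of the cytoskeleton and of process growth were more often higher than lower against precursors. Of 71 listed genes, 67 were in the annotation of the matrix, and 47 reached 100 CPM in either group at P8 and 44 at P21. At P8 15 were 2-fold or more higher in committed nuclei and 3 lower, beside 14.1% and 17.5% over all genes. At P21 27 were higher and 3 lower, beside 21.6% and 26.8%. Against myelinating nuclei 13 of the 47 at that level were higher and 14 lower, beside 15.3% either way. Tubb4a, a tubulin of oligodendrocytes, was at 362 and 383 CPM in committed nuclei of P8 and P21, at 19.5 and 53.4 in precursors and at 537 in myelinating nuclei. Kif21a, a kinesin, was at 243 and 486 CPM, against 31.2 and 66.8 in precursors and 425 in myelinating nuclei. Mical3, an enzyme that oxidises actin, was at 2213 CPM at P21, above both precursors (294) and myelinating nuclei (601). Tppp, which bundles microtubules in myelinating cells, had no UMI in committed nuclei of P8 and 206 CPM at P21, at least 14.4-fold higher. The septin gene Sept4 and the kinase gene Pak1 were at 4.76 and 33.3 CPM at P8 and at 247 and 329 at P21, still below 794 and 1392 in myelinating nuclei. Pak1 was uneven among the P21 nuclei, as described below. Lower than in precursors were Srgap1, a GTPase-activating protein gene (115 against 551 CPM at P21), and Mtss1, a membrane-bending protein gene (82.3 against 347).

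Of 48 listed receptors, 25 reached 100 CPM in either group at P8 and 28 at P21. At P8 4 were 2-fold or more higher than in precursors and 10 lower, beside 14.1% and 17.5% over all genes. At P21 9 were higher and 13 lower, beside 21.6% and 26.8%. On the lower side, Ntrk3, the receptor of neurotrophin 3, was at 262 and 65.9 CPM against 1046 and 985 in precursors, and Robo1, a Slit receptor, at 438 and 134 against 1267 and 1169. On the higher side were Plxnb3, a plexin, at 276 and 424 CPM against 35.1 and 50.1, and Ephb1, an ephrin receptor, at 952 and 1577 against 336 and 250.4. The lysophosphatidic acid receptor gene Lpar1 was at 76.1 and 278 CPM against 3.9 and 23.4. Fgfr2 and the neuregulin receptor gene Erbb3 passed 2-fold at P21 and not at P8, a difference that was not tested. Both were uneven within committed nuclei of P21, as described with the single nuclei. Fgfr2 was at 167 and 113 CPM in committed nuclei and precursors of P8 and at 782 and 114 at P21, and Erbb3 had no UMI in committed nuclei of P8 and 132 CPM at P21.

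Of 40 genes of Wnt, Notch and BMP signalling, 11 reached 100 CPM in either group at P8 and 13 at P21. At P8 2 were higher and 2 lower than in precursors, beside 14.1% and 17.5% over all genes. At P21 4 were higher and 2 lower, beside 21.6% and 26.8%. With so few genes measured, the counts do not set the list apart from all genes. Tcf7l2 and Bmp4 were the higher genes of both stages. Smad7, an inhibitor of BMP and TGF-beta signals, was at 33.3 and 25.4 CPM in committed nuclei and precursors of P8 and at 436 and 40.1 at P21, beside 567 in myelinating nuclei. Rnf43, which removes Wnt receptors from the cell surface, was lower at both stages (80.9 against 181 and 30.9 against 144 CPM).

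The same-library contrasts of P8 and P21 shared 206 genes that were 2-fold or more higher in committed nuclei than in precursors, which is 61.7% of the 334 of P8 and 36.9% of the 558 of P21. They shared 304 lower genes, 73.6% of the 413 of P8 and 44.0% of the 691 of P21. Over all genes at 100 CPM or more in either group, 14.1% were higher and 17.5% lower at P8, and 21.6% and 26.8% at P21. Genes that passed 2-fold in opposite directions were few, 7 higher at P8 and lower at P21 and 8 the other way.

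At P21 the committed nuclei could be set against both neighbours. Of 1815 genes with 100 CPM or more in committed nuclei, 176 (9.7%) were 2-fold or more above both precursors and myelinating nuclei. Of 1193 genes with 100 CPM or more in both neighbours, 59 (4.95%) were 2-fold or more below both. Against myelinating nuclei alone, 15.3% of 2255 genes were higher and 15.3% lower. Of the 176 genes, 123 were at 100 CPM or more in either group at P8, and 95 of these were 2-fold or more higher in committed nuclei than in precursors in that library. Over all 2361 genes at that level at P8, 14.1% were higher.

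The 12 genes that stood furthest above both neighbours, chosen by these values, were led by 9630013A20Rik (log2 ratios 6.06 over precursors and 6.37 over myelinating nuclei). Tmem2, a cell-surface hyaluronidase, had 778 (702 to 861) CPM in committed nuclei, 13.4 in precursors and 15.3 in myelinating nuclei. Cnksr3, a scaffold of Ras and Raf signalling, had 2931 (2781 to 3088) CPM, against 23.4 and 130.2. Rras2, a small GTPase of the Ras family, had 836 (756 to 921) CPM, against 33.4 and 30.6. Neurons of P21 also had some of both, 39.1 CPM of Tmem2 and 29.4 of Rras2.

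Casr, the calcium-sensing receptor, had 76 UMIs in committed nuclei of P21, which is 156 (123 to 196) CPM, and 1.28 CPM in myelinating nuclei. Precursors of P21 had none, so that Casr was at least 15.6-fold higher in committed nuclei (against a floor of 3 UMIs for the group). Kif19a, a kinesin, had 428 CPM against 6.68 and 14.7. Frmd4a, a scaffold of cell polarity, reached 12148 CPM against 631 and 213, the highest level of the 12. Bmp4, Dock6 and Arhgap29, the latter pair regulators of small GTPases, Gm26834, a long noncoding RNA gene, and D430041D05Rik made up the rest, with 278, 115, 301 and 1350.5 CPM for the last 4 in that order.

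**Figure D2:**
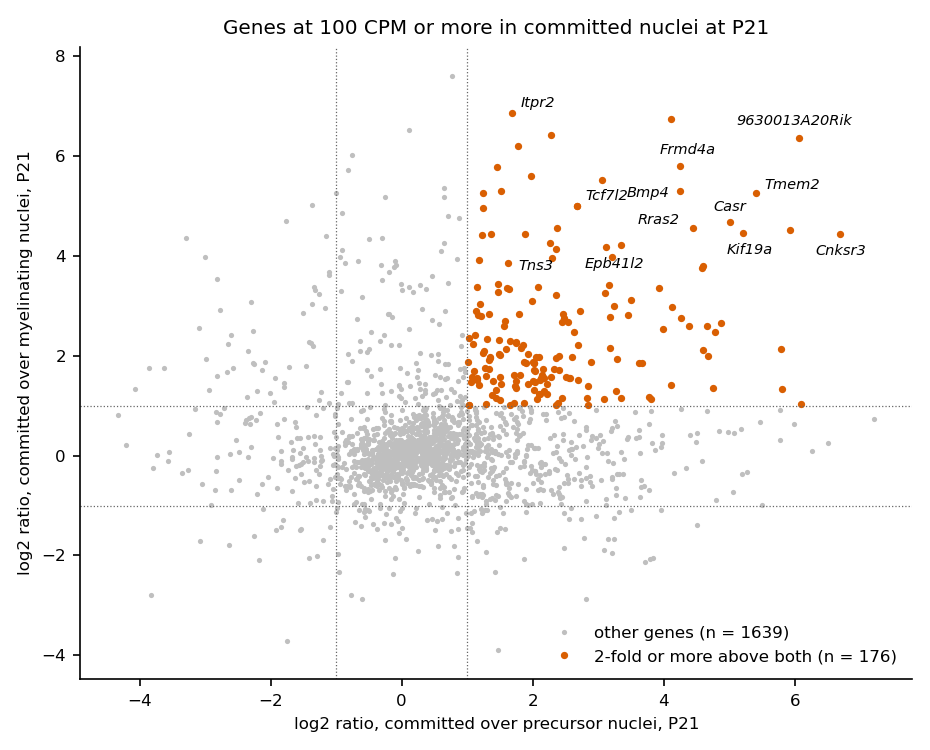
Log2 ratio of committed over precursor nuclei (x axis) against log2 ratio of committed over myelinating nuclei (y axis) at P21, for the 1815 genes at 100 CPM or more in committed nuclei; both axes share the committed nuclei. The 176 genes 2-fold or more above both neighbours (orange) lie beyond the dotted lines at the upper right, with 9630013A20Rik at 6.06 and 6.37.

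The genes furthest below both neighbours at P21 included a guidance receptor and a glutamate receptor. Dcc, the netrin receptor, had 142 (111 to 179.8) CPM in committed nuclei, 2090.3 in precursors and 1007 in myelinating nuclei; at P8 it was at 1066 CPM in committed nuclei and 2759 in precursors. Grik1, a kainate receptor subunit, had 20.6 (9.87 to 37.9) CPM, against 447 and 244. Slc8a1, a sodium-calcium exchanger, had 63.8 CPM, against 541 and 774, and Samd4, Alk and Pstpip2 completed the 6 lowest.

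Adhesion genes of axon contact were more often higher than lower against myelinating nuclei. Of 50 genes, 43 reached 100 CPM in committed or myelinating nuclei at P21. Of these, 22 were 2-fold or more higher and 7 lower than in myelinating nuclei, beside 15.3% either way over all genes. Against precursors of P21, 12 of the 40 at that level were higher and 14 lower, beside 21.6% and 26.8%. Nfasc, whose glial form anchors the paranode, had 3735 CPM in committed nuclei of P8 and 8251 of P21, against 242 and 334 in precursors and 1905 in myelinating nuclei. Sema4d, a semaphorin, had 433 and 1702 CPM, against 48.8 and 56.8 in precursors and 301 in myelinating nuclei. Opcml, a cell adhesion molecule of the IgLON family, had 9849 CPM in committed nuclei and 637 in myelinating nuclei. Pcdh9 went the other way, with 10907 CPM against 29914 in myelinating nuclei.

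Myelin genes were more often higher than in precursors and lower than in myelinating nuclei. Of 42 myelin and mature genes, 12 reached 100 CPM in either group at P8 and 20 at P21. At P8 8 were 2-fold or more higher in committed nuclei than in precursors and 1 lower (Edil3), beside 14.1% and 17.5% over all genes. At P21 18 were higher and 1 lower (Edil3 again), beside 21.6% and 26.8%. Against myelinating nuclei of P21, 20 of the 35 at that level were lower and 1 higher, beside 15.3% either way. The 1 higher gene was Cd9, a tetraspanin, at 387 CPM against 123. Cd9 was uneven among the committed nuclei of P21, at 916 CPM in the 19 with the least myelin RNA. In the 18 with the most, it was at 52.8 (25.3 to 97) CPM, although Cd9 is in the myelin list that sets this order. Mbp, which codes for the myelin basic protein, was at 2265 CPM in committed nuclei of P8 and 7012 at P21, beside 8825 in myelinating nuclei.

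The furthest from their level in myelinating nuclei were genes of late myelination. Prr5l, which adjusts the mTOR pathway, was at 22.6 CPM in committed nuclei of P21 and 2451 in myelinating nuclei. Aspa, an aspartoacylase, was at 10.3 and 694 CPM, and Dock5, an activator of Rac, at 2.06 and 217. Hapln2, a protein of the node of Ranvier, had no UMI in committed nuclei of P21 and 169 CPM in myelinating nuclei, at least 27.4-fold higher there. Anln, which codes for anillin, was at 2.06 CPM, against 219.

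The single committed nucleus of E19 had 1.17% of its UMIs in the 4 markers, 3.45% in the further commitment genes, 2.14% in precursor genes and 1.89% in myelin and mature genes, each inside the range of the P21 committed nuclei.

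Committed nuclei of the P21 library differed from those of P8 in 365 of 2317 genes that were 2-fold or more higher (15.8%) and 381 that were lower (16.4%). Scaled to the median of ratios, the split was 512 higher and 222 lower, so that the balance of directions between the stages depends on the scaling. The largest difference was that of Mobp, a myelin protein gene, which had no UMI among the 210155 of P8 and 2612 (2471 to 2760.2) CPM at P21, at least 183-fold higher. Tmem2 went from 0 UMIs to 778 CPM (at least 54.5-fold), and Cldn14, a claudin, from 0 to 737 (at least 51.6-fold). Gas7, Creb5, Man1a and Kndc1 had 1 UMI each at P8 and 1357, 1348, 1103 and 996 CPM at P21. Rnf220, a ubiquitin ligase, stood at 19 and 2641 CPM. Cnksr3 and Rras2 were at 290.3 and 28.6 CPM at P8 and, as given above, far higher at P21.

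Several of the genes furthest below P8 at P21 are known from precursors. Cspg5, a chondroitin sulfate proteoglycan, was at 133 CPM at P8 and 6.18 at P21, Megf11 at 262 and 20.6, and Serpine2, a protease inhibitor, at 233 and 24.7. The transcription factor genes Rfx4 and Tox were at 114 and 328 CPM at P8 and 4.12 and 22.6 at P21. Tubb2b, a tubulin of young cells, was at 729.6, 324 and 28.8 CPM from P4 to P21, and in precursors at 886, 414 and 20, so that the age difference was of like direction in both labels.

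By list, 13 of 27 precursor genes were 2-fold or more lower at P21 than at P8 and 0 higher, and 15 of 42 myelin genes were higher and 0 lower. At 100 CPM or more in either group were 19 of the precursor and 20 of the myelin genes. Over all genes 15.8% were higher and 16.4% lower. Of the 30 further commitment genes, 27 of which reached 100 CPM in either group, 7 were higher and 2 lower. The higher ones were 12 with scaling to the median of ratios, and 11 both when the 10% of nuclei with the most UMIs were left out and when nuclei were thinned. With scaling to the median of ratios more of all genes were higher as well, as given above. The 15.8% over all genes holds for scaling to totals with all nuclei and UMIs. Of 50 genes of cholesterol and lipid synthesis, 22 of which reached 100 CPM in either group, 14 were higher and 1 lower (Sgms1). Fdft1, the first enzyme committed to sterols, was at 28.6 CPM in committed nuclei of P8 and 181 of P21, and Acsl3, an acyl-CoA synthetase, at 105 and 681. Fa2h, which makes the hydroxylated lipids of myelin, was already high at P8 (533 and 535 CPM, against 64.4 and 104 in precursors). Against precursors of the same library, 4 of the 13 lipid genes at that level were higher and 0 lower at P8, beside 14.1% and 17.5% over all genes. At P21 16 of 22 were higher and 1 lower, beside 21.6% and 26.8%.

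Of the 365 higher genes, 244 (66.8%) were also 2-fold or more higher in myelinating nuclei than in precursors of P21, where 19.2% of all 2317 genes were. Of the 381 lower genes, 253 (66.4%) were also lower there, where 22.1% of all 2317 were. The P21 library is also the one with myelinating nuclei, and depth differed, their parts in the difference not tested (median 6152 against 8510 UMIs). The question of which nuclei carry the difference was therefore put to the single nuclei.

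The committed nuclei of P21 did not form 1 even population. Myelin and mature genes took from 0.256% to 2.55% of the UMIs of a committed nucleus of P8 (median 0.981%), but from 0.721% to 8.28% in P21 (median 2.60%, quartiles 1.63% and 5.78%). At P4 the 12 nuclei spanned 0.266% to 2.74%. Precursor genes took from 2.15% to 4.46% at P8 and from 0.163% to 4.12% at P21. Of the 55 nuclei of P21, 26 lay within the P8 range of the myelin share and 29 above it, with 3 lying close to the limit (within 10% of it). On the myelin share, 17 of the 55 reached the lowest myelinating nucleus of P21 (5.48%) and 3 the lower quartile of myelinating nuclei (7.32%). The 4 markers together took a median of 0.707% of the UMIs of the 18 nuclei with the highest myelin share against 0.147% in myelinating nuclei (highest 0.478%), but they did so unevenly. In those 18 nuclei 9630013A20Rik stood at 5307 CPM and Tns3 at 1387, above the myelinating level of both. Bcas1, at 669.97 CPM, was below the 1255 CPM of myelinating nuclei. Enpp6, at 95 (56.3 to 150) CPM, did not differ from their 107 CPM beyond counting error. On the precursor share, 10 of the 55 reached the lowest precursor of P21 (3.15%), and 24 of 33 did so at P8 (2.57%). The nuclei above the range were also deeper, with a median of 10376 against 6829.5 UMIs.

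**Figure D3:**
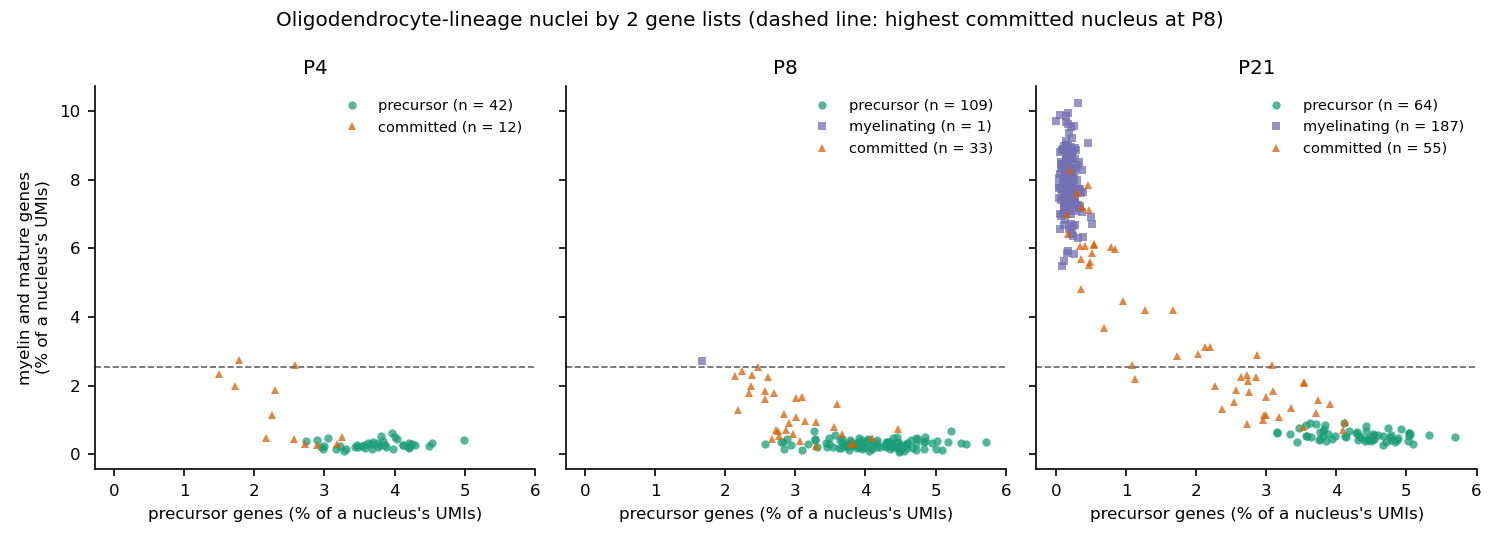
Share of the UMIs of each nucleus in 27 precursor genes (x axis, percent) and 42 myelin and mature genes (y axis, percent) at P4, P8 and P21, for precursor (circles), committed (triangles) and myelinating (squares) nuclei. Committed nuclei lie next to the precursors at P4 and P8, below or near the dashed line at the highest P8 committed nucleus (2.55%), and at P21 they extend from the precursors to the myelinating nuclei.

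With the P21 nuclei limited to the 26 within the P8 range, 179 of 2269 genes (7.89%) were 2-fold or more higher than at P8 and 193 (8.51%) lower, and the lists gave 4 lower and 1 higher precursor genes, 5 higher and 1 lower myelin genes and 4 higher lipid genes. Of the 365 and 381 genes above, 87 and 150 passed 2-fold in the same direction. This limit was set on the myelin share after the spread was seen, and it lowers the myelin genes by its construction. Outside the myelin list, Cspg5 (log2 ratio -3.73), Tox (-3.98), Rfx4 (-3.52) and Tubb2b (-2.36) were at least 4-fold below P8, as with all 55 nuclei. Kif19a (4.27), with UMIs in 18 of the 26 nuclei, stayed above P8. Other ratios rested on 1 nucleus, the 23rd of the 55 by myelin share (14420 UMIs, 2.19% in myelin genes and 1.12% in precursor genes). It held all 22 Tmem2 UMIs of the 26 nuclei, 53 of 68 Rnf220 UMIs, 15 of 29 Gas7 UMIs and 68 of 146 Cnksr3 UMIs. Without it the log2 ratio was 1.94 for Rnf220, 3.15 for Gas7 and 0.64 for Cnksr3, Tmem2 had no UMI, and 163 genes were higher and 190 lower. Casr and Tnni1, a troponin gene, had no UMI in either group, and Creb5, at 10.8 CPM against 2177 above the range, came almost wholly from the latter.

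**Figure D4:**
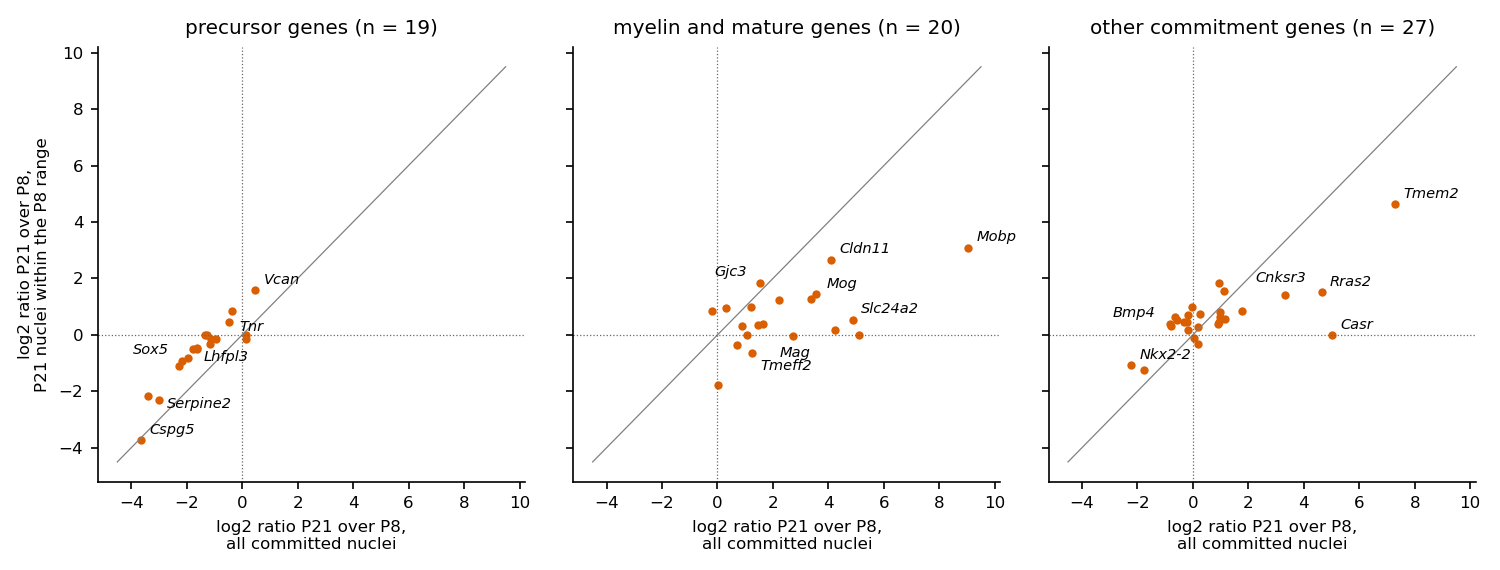
Log2 ratio of P21 over P8 in committed nuclei with all 55 P21 nuclei (x axis) and with the 26 within the P8 range of the myelin share (y axis), for the members of 3 lists at 100 CPM or more in either sum; the line marks equal values. Myelin genes drop towards 0 on the y axis, whereas Cspg5 and Serpine2 stay low; the point of Tmem2 rests on 1 nucleus.

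The committed genes differed in where along the myelin share they were highest at P21. The 19 nuclei with the lowest share (0.721% to 1.99%), the next 18 (2.09% to 4.47%) and the 18 with the highest (4.81% to 8.28%) held 127699, 168499 and 189561 UMIs. Precursor genes took a median of 3.00%, 2.16% and 0.438% of their UMIs, and the 4 commitment markers 1.13%, 1.42% and 0.707%. None of the genes in the next sentences is in the myelin list that set the order, unless so named.

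Bmp4 was at 556, 208 and 0 CPM in the 3 groups, and Neu4 at 431, 131 and 0, both highest in the nuclei with the least myelin RNA. Bcas1 was at 6601, 4463 and 669.97 CPM, Enpp6 at 1237, 1211 and 95 and Gpr17 at 736, 178 and 58. Genes highest in the middle group were Frmd4a (8692, 26510.5 and 1709 CPM), Tcf7l2 (1934, 4985 and 1150.03), Tns3 (2889.6, 4178 and 1387) and Mpzl1, a cell-surface receptor (1433, 2184 and 211). 9630013A20Rik was at 901, 3958 and 5307 CPM, Cnksr3 at 337, 3596 and 4088, Tmem2 at 0, 896 and 1198, and Rras2 at 62.6, 736 and 1445. Casr was at 0, 35.6 and 369 CPM. Of the 12 genes furthest above both neighbours at P21, 1 was highest in the first group (Bmp4), 5 in the middle group and 6 in the last, and all 6 of the last stood at 130.2 CPM or less in myelinating nuclei. For Mobp, which is in the myelin list, the levels were 15.7, 605 and 6146 CPM.

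Single nuclei showed the same order. Among the 55 nuclei of P21, 24 held a Bmp4 UMI and 29 a Mobp UMI, and 4 held both. After thinning to 2300 UMIs, 17 held Bmp4, 24 Mobp and 1 both. Tmem2 was seen in 21 nuclei, none of which held Bmp4 and 20 of which held Mobp (19, 0 and 17 after thinning). Neu4 was seen in 22 nuclei, 18 of which held Bmp4 and 2 Mobp (16, 12 and 0 after thinning). At P8, 27 of 33 nuclei held Bmp4 and 25 Neu4, with 21 holding both (15, 16 and 9 after thinning), and none held Mobp or Tmem2. Mobp was also seen in 289 of 1422 neurons of P21 and Bmp4 in 31 (51 and 6 after thinning, from a median depth of 16388 UMIs). In a single nucleus the absence of a UMI is not the absence of the RNA.

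**Figure D5:**
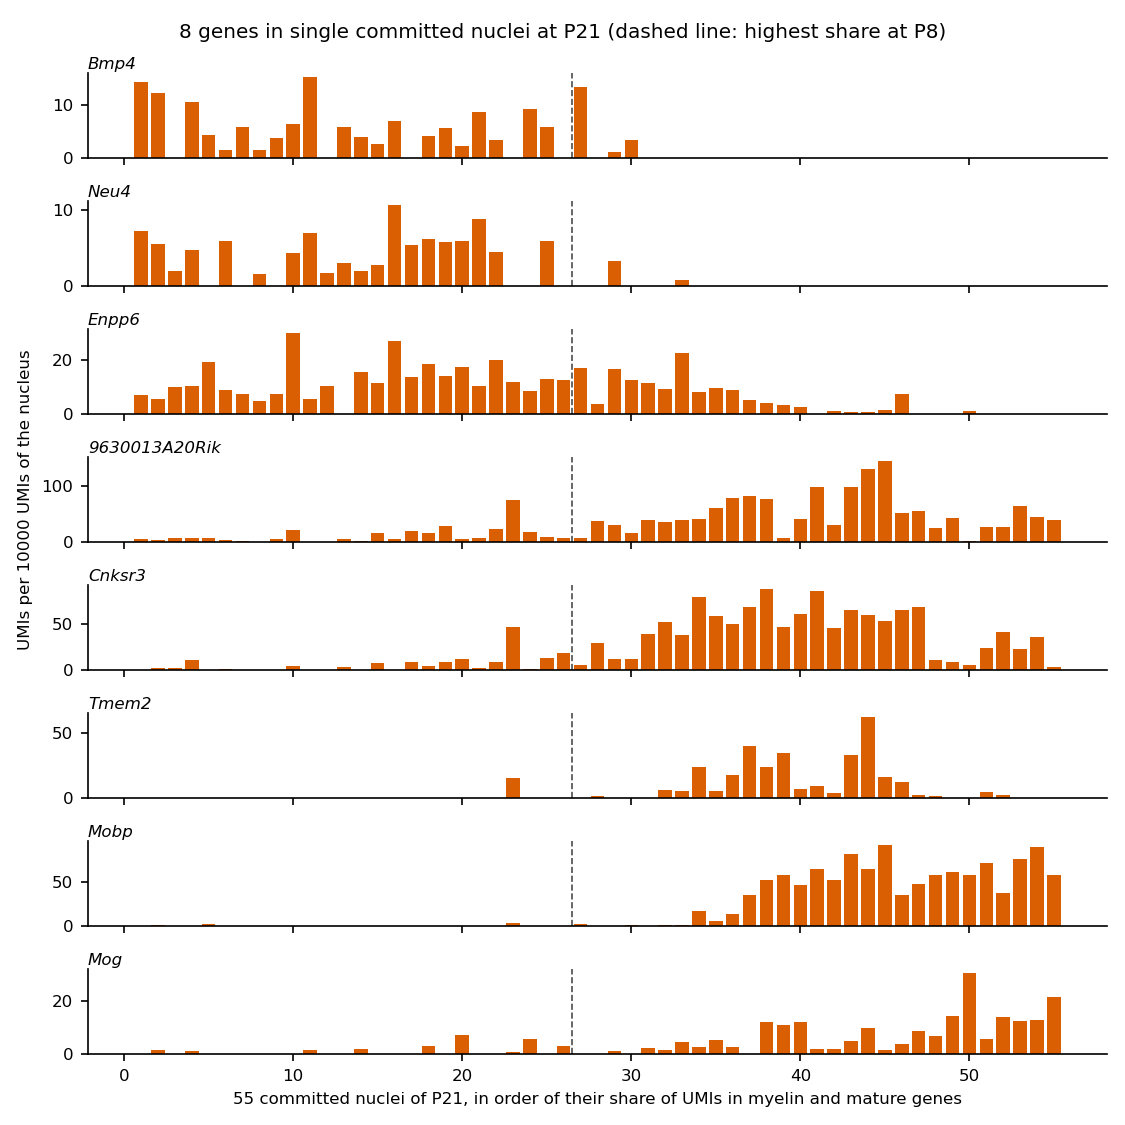
UMIs of 8 genes per 10000 UMIs of the nucleus in each of the 55 committed nuclei of P21, in order of the share of UMIs in myelin and mature genes; the dashed line separates the 26 nuclei within the P8 range from the 29 above it. Bmp4 and Neu4 stand at the left, Enpp6 on both sides of the line, 9630013A20Rik, Cnksr3 and Tmem2 mainly to its right, and Mobp and Mog, which are in the ordering list, at the far right.

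The same division of the P21 nuclei was then set beside the precursors of that library. Within the P8 range Neu4 was at 393 (308 to 494) CPM and Gpr17 at 592 (487 to 714), and above it at 13.3 (3.63 to 34.1) and 83.3 (53.9 to 123), with 304 and 297 in precursors of P21. Nkx2-2 was at 209.9 CPM within the range and 16.7 above it. Tnr was at 13859 and 3314 CPM, and Sox6 at 2853 and 300.04. St18, Myrf and Zeb2 were less divided, at 2669.6 and 4791, 242 and 263, and 2976 and 2604 CPM. Of these, St18 is in the myelin list that set the division, so its difference is in part set by construction. Fgfr2, Erbb3, Zfp536, Grik2 and Pak1 were at 178, 21.5, 506, 1168 and 53.8 CPM within the range. Precursors of P21 had 114, 26.7, 291, 915 and 86.8 CPM of them, so that none was 2-fold apart. In the 18 nuclei with the highest myelin share these genes were at 1535, 306, 2791, 2664 and 775 CPM.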

How the data were processed

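Single-nucleus RNA was measured in 4 libraries, 1 per stage, with Cell Ranger 3.0.2 and the mm10 genome named in the submitters' processing notes. The authors deposited a matrix of counts, whole UMIs for 31053 genes in 9724 nuclei, and a table with each nucleus's library, subtype, cluster and percent of mitochondrial counts (deposited values reached 5%). How nuclei were filtered, doublets treated and subtypes named is not given in the sources used here, no doublet caller was run, and 4 further per-nucleus columns were not used. Whether counting used strand is not given either: of 103 genes named in the results, 60 overlap an annotated gene on the opposite strand and 40 one on the same strand, so that UMIs of such pairs may be shared. For 9630013A20Rik the partner is Pcdh17.

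UMIs were summed over nuclei per subtype and library (pooled animals, 2513 to 17408 UMIs per committed nucleus), scaled to CPM and given exact Poisson 95% intervals with scipy 1.17.1 (numpy 2.4.6, pandas 2.3.3, python 3.11.15, matplotlib 3.10.9). Log2 ratios used a pseudocount of 5 CPM and understate the change of low genes; genes counted past 2-fold had 100 CPM or more on their higher side. With 1 library per stage no test was possible, and intervals cover counting error only. Shares of nuclei with a UMI were given after thinning each nucleus to 2300 UMIs and with all UMIs. The counting script was checked on simulated data. Gene identifiers were placed with GENCODE M21 (31011 of 31053 found).

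The nuclei, the gene lists and the comparisons were chosen with earlier results of these data known. Genes were named by rule: list genes of the committed stage at 100 CPM or more, up to 4 genes per list and direction, the 12 and 6 genes furthest above and below both neighbours, and the 10 largest differences each way between stages. Enpp2, Grm5, Lhfpl3, Mog, Pcdh9, Sox10, Ttr and the genes under closer look were named after their values were seen. Alternatives were other pseudocounts, scalings, weights, count minimums, thinning, and nuclei left out; limiting P21 nuclei to the P8 range was chosen after seeing the data.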

Additional observations from a re-analysis of the deposited data

Results flagged for a closer look

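For 15 genes the committed nuclei stood 2-fold or more to one side of the precursors at P8 and 2-fold or more to the other side at P21. The difference between the stages was not tested, since each stage is 1 library. Lower than precursors at P8 and higher at P21 were 8 genes. Creb5, a CREB-family transcription factor gene, had a log2 ratio of -4.52 at P8 and 2.82 at P21, from levels of 4.76 CPM in committed nuclei and 219 in precursors of P8 and 1348 and 187 at P21. The others on this side were Atp10b (-3.45 and 2.82), Nebl (-3.12 and 1.15), Carmil1 (-1.97 and 1.51), Chsy3 (-1.75 and 2.16), Pip5k1b (-1.50 and 1.65), Ano4 (-1.42 and 2.48) and Meis1 (-1.27 and 1.08), with the log2 ratio of P8 first and that of P21 second.

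Higher at P8 and lower at P21 were 7 genes. Zfp804a, a zinc finger gene, had a log2 ratio of 1.89 at P8 (799 CPM in committed nuclei and 213 in precursors) and -1.21 at P21 (82.3 and 197 CPM). The others were Jakmip1 (1.45 and -1.64), Sh3bp4 (1.37 and -1.10), Reep1 (1.28 and -1.38), Ptpn14 (1.21 and -1.22), Kcnj3 (1.18 and -1.09) and Frmd6 (1.05 and -1.47). With the P21 nuclei limited to the 26 within the P8 range of the myelin share, the ratio to precursors of P21 lay between -0.71 and 0.33 for 13 of the 15 genes, short of 2-fold, and at -3.61 for Creb5 and -2.76 for Nebl, the side on which they stood at P8. For 2 of the 13 the value rested on 1 nucleus: Carmil1, with 21 of its 28 UMIs in the 23rd nucleus by myelin share, was at -2.48 without it, past 2-fold on its P8 side, and Atp10b, with all 3 of its UMIs in the 22nd, had none left. For the other 11 genes, the ratio without the nucleus with the most UMIs of the gene stayed between -0.75 and -0.026.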

How the results depend on the processing

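The 300 gene ratios between groups gave 2100 values under other settings, leaving aside the limit to the P8 range. Of these, 1890 stayed within the counting error of the reported ratio, 210 moved further and 0 changed sign. Counts of genes 2-fold apart followed the level required of them. At 50 CPM, committed nuclei had 533 higher and 693 lower genes against precursors at P8, 1177 lower at P21, and 833 lower at P21 against P8. At 200 CPM the counts were 210 and 243 at P8, 354 and 382 at P21, 230 and 200 against myelinating nuclei, and 220 and 195 for P21 against P8. Scaling to the median of ratios gave 222 lower genes at P21 against P8. The further commitment genes higher at P21 than at P8 were 7 as reported, 12 with that scaling, and 11 both when the 10% of nuclei with the most UMIs were left out and when nuclei were thinned.

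Limiting P21 nuclei to the P8 range gave 179 higher and 193 lower genes (163 and 190 with 1 more nucleus left out), 4 lower precursor genes, 5 higher myelin genes and 4 higher lipid genes, and the limit is itself set on the myelin genes. Under that limit the P21 over P8 log2 ratio changed sign for Lpar1 (-0.11), Pcdh9 (-0.019), Rb1 (-0.078) and Kcnj3 (0.0036). No paired analysis was possible because each stage is 1 library. Depth limits the P4 sum most, where 100 CPM is 5.89 UMIs; the 33 nuclei of P8 and 55 of P21 come from 1 library each, so no value carries the spread between animals.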

Other observations

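The only nucleus labelled myelinating outside P21, at P8, had 2.70% of its UMIs in myelin and mature genes, 1.61% in the 4 commitment markers, 3.57% in the further commitment genes and 1.67% in precursor genes. All myelinating nuclei of P21 had 5.48% or more in myelin genes and 0.478% or less in the commitment markers, and the committed nuclei of P8 had up to 2.55% and 1.67% in those 2 lists.

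Among precursors of P21, the highest share of UMIs in the commitment markers was 0.766% and that in the further commitment genes 2.28%, against medians of 0.115% and 0.421%. The mitochondrial share of UMIs had a median of 1.86% in committed nuclei of P4, 0.61% at P8 and 0.413% at P21; within P21 it was 0.464% in the 26 nuclei within the P8 range of the myelin share and 0.376% in the 29 above it.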
